A study of Sus scrofa domesticus with 16 samples.

Results

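Calpastatin, encoded by CAST, and the calpains it holds in check were followed across adrenal glands of pigs after social mixing. The genes were found through the gene symbols of the array's annotation: CAST, the catalytic subunits CAPN1, CAPN2 and CAPN3, and the small subunit CAPNS1. These 5 genes, of 6765 that had a probe set with 1 symbol, were represented by 11 probe sets, 5 of them for CAST. CAST was chosen by its own values: 1 of its probe sets was among those with the smallest p on the low side of the stress comparison, so that comparison is given for CAST as a description without a test. The calpains were added by family. Samples came from 16 domestic pigs, Sus scrofa domesticus, with 1 gland sample, total RNA and 1 Affymetrix GeneChip Porcine Genome Array per animal. The 8 high stress pigs came from a mixing treatment of high aggressiveness and the 8 low stress pigs from one of low aggressiveness. All of them had been mixed with unfamiliar pigs, so the low stress group was not an unmixed control. The submitters state that the 2 selected groups differed in fighting and in blood cortisol. Sex, age and breed are not given in the labels.

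Calpains are cysteine proteases of the cytosol that calcium switches on. They cut their substrates at a few places, which alters a protein more often than it destroys it. CAPN1 and CAPN2, the large subunits of mu-calpain and m-calpain, each pair with CAPNS1. Calpastatin is their specific inhibitor, binds them in the calcium-bound state through repeated inhibitory domains, and is made in several forms from different promoters and splice choices. The reference gene table listed 28 transcripts for pig CAST. In pig muscle the balance of calpains and calpastatin is known for its part in the tenderness of meat, and CAPN3 is the calpain of skeletal muscle.

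Signals are intensities on the log2 scale, and a probe set was tested when its mean over all animals was above 6.152, the 40th percentile, which kept 14399 of 23999 probe sets and 7 of the 11 here. Median signals of arrays lay between 116 and 148 in linear intensity, and arrays of high stress animals correlated with each other at 0.917 to 0.972, those of low stress animals at 0.917 to 0.969. The arrays fell into 2 sets by dap, a labelling control of bacterial origin, with a mean intensity of 3590 in the high-spike and 605 in the low-spike set. High stress pigs supplied 4 arrays of each set and low stress pigs the other 4, and the labels do not mention the sets. Ratios of 3' to 5' control signal, a sign of RNA length, had means that ran in opposite directions between the sets. For actin the ratio was 5.28 to 8.80 in the high-spike and 9.97 to 21.9 in the low-spike set, and for GAPDH 1.39 to 1.68 in the high-spike and 1.28 to 1.46 in the low-spike set. Cortex markers were above the signal filter in 8 of 8 genes with a probe set, and their summed intensity was 142757 to 192100 in high stress and 129769 to 183899 in low stress. Chromaffin markers, of the medulla, were above it in 5 of 6 genes, with sums of 34121 to 60181 in high stress and 30422 to 56715 in low stress. Skeletal muscle markers were above it in 2 of 10 genes. In whole glands, fewer cells of a type and less RNA per cell cannot be told apart.

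The inhibitor, CAST, was read by 5 probe sets that did not give the same picture. They are called CAST-A to CAST-E in falling order of mean signal, and likewise for CAPNS1 and CAPN3; the plots give their full names. The probe set that led to the choice of the gene, CAST-C, had a lowest, median and highest log2 signal of 6.11, 6.50 and 6.96 in high stress glands, against 6.64, 6.93 and 7.25 in low stress glands. The groups overlapped: 5 of 8 high stress animals lay below every low stress animal, and 4 of 8 low stress animals lay above every high stress animal. The means were 6.54 ± 0.28 in high stress glands and 6.95 ± 0.23 in low stress glands (SD, n = 8 each). The log2 difference was -0.42 (95% confidence interval -0.70 to -0.14), a signal of 0.749 of the low stress level. High stress animals lay below the low stress mean in 7 of 8 cases, and low stress animals above the high stress mean in 8 of 8. The difference was -0.39 within the high-spike set and -0.44 within the low-spike set.

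CAST-A, the CAST probe set with the highest mean, spread far more within each group. Its lowest, median and highest log2 signals were 7.47, 8.16 and 9.39 in high stress and 7.62, 8.54 and 9.53 in low stress. The 2 ranges nearly coincided. The log2 difference was -0.08 (95% confidence interval -0.74 to 0.58), and leaving out 1 animal moved it between -0.23 (without high stress replicate 2) and 0.07 (without low stress replicate 3). Within the high-spike set it was 0.02 and within the low-spike set -0.18. The SE was 0.31, and 0.18 with the set of the array in the model. CAST-B reached 6.28, 7.15 and 7.88 in high stress and 6.96, 7.46 and 7.79 in low stress. Its log2 difference was -0.20 (95% confidence interval -0.64 to 0.24), with 0.14 within the high-spike set and -0.54 within the low-spike set, so the sign turned between the sets. Leaving out 1 animal gave -0.30 (without high stress replicate 2) to -0.07 (without high stress replicate 4). The stress by set interaction was 0.69 (95% confidence interval -0.08 to 1.45), with an adjusted p = 1 in limma, where 0% of 14399 probe sets passed that test and 421 had an unadjusted p under 0.05.

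The remaining CAST probe sets were dim, with means below the filter. CAST-D had log2 signals of 2.78, 4.94 and 5.93 in high stress and 5.38, 5.62 and 6.59 in low stress (lowest, median, highest). As many as 5 of 8 high stress animals lay below the lowest low stress animal, at a signal level where small intensities make log2 values unsteady. The log2 difference was -1.01 (95% confidence interval -1.82 to -0.21). CAST-E had 4.09, 5.35 and 5.80 in high stress and 2.72, 5.29 and 6.0 in low stress. Its log2 difference was 0.09 (95% confidence interval -0.77 to 0.94), with -0.49 within the high-spike and 0.66 within the low-spike set. Of the 7 tested probe sets CAST-C was nearest the filter, with a mean of 6.75 over all animals, and CAST-D was the nearest below it, with 5.31.

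Signs were therefore below 0 in 4 of 5 CAST probe sets, with sizes that differed widely. The count includes CAST-C, and 58.4% of all 14399 tested probe sets also lay below 0. For the mean of the 3 tested probe sets, the values were 7.37 ± 0.41 in high stress glands and 7.60 ± 0.31 in low stress glands (SD, n = 8 each), a log2 difference of -0.23. Over all 5 it was -0.33. Among 337 genes with at least 3 tested probe sets, the stress differences of a gene's probe sets spanned a median of 0.19 on the log2 scale, against 0.33 for CAST, and 64 of them, 19%, spanned at least as much. The CAST span includes CAST-C, whose value chose the gene. Probe set names ending in a_at mark probes shared by several transcripts of a gene, and which CAST transcripts each set reads was not tested.

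**Figure D1:**
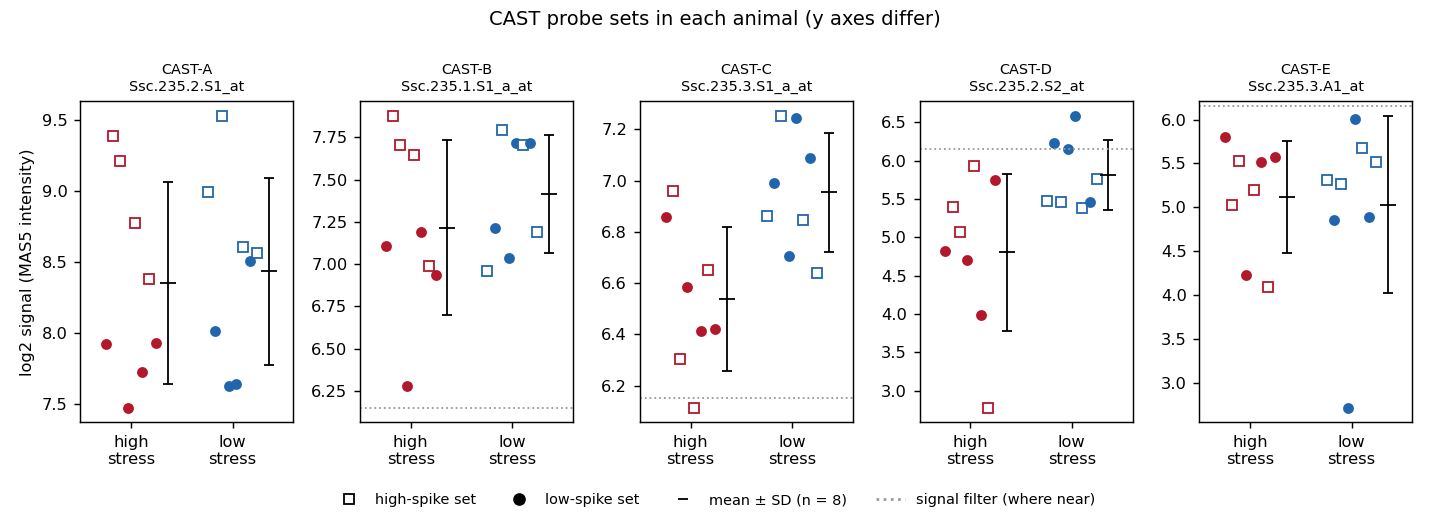
Log2 signal of the 5 CAST probe sets in each of 8 high stress (red) and 8 low stress (blue) pigs, with open squares for the high-spike and filled circles for the low-spike set of arrays, mean ± SD beside them and the signal filter dotted where it lies near. In CAST-C the high stress animals centre on 6.54 and the low stress animals on 6.95, while in CAST-A the squares lie mostly above the circles in both groups.

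No stress difference was detected for the catalytic subunits of the 2 calpains that calpastatin inhibits. CAPN1, the large subunit of mu-calpain, gave log2 signals of 8.65, 8.91 and 9.59 in high stress and 8.81, 9.19 and 9.40 in low stress (lowest, median, highest). The ranges overlapped almost wholly, and the animal at 9.59 was high stress replicate 7. The means were 9.0 ± 0.29 in high stress glands and 9.14 ± 0.22 in low stress glands (SD, n = 8 each), a log2 difference of -0.14 (95% confidence interval -0.42 to 0.13, limma adjusted p = 0.999). Without that animal the difference was -0.23, and without high stress replicate 1 it was -0.09, still with an adjusted p of at least 0.906 whichever animal was left out.

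CAPN2, the large subunit of m-calpain, was the steadiest of the genes. Its log2 signals were 12.23, 12.40 and 12.51 in high stress and 12.25, 12.37 and 12.41 in low stress. Means were 12.38 ± 0.09 in high stress glands and 12.35 ± 0.07 in low stress glands (SD, n = 8 each). The log2 difference of 0.03 had a 95% confidence interval of -0.12 to 0.19 (limma adjusted p = 0.999), which holds the change in signal between 0.918 and 1.14 times the low stress level. Its sign turned with quantile normalization (-0.01).

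CAPNS1, the small subunit that stabilises both enzymes, was read by a pair of probe sets. CAPNS1-A gave 13.29, 13.73 and 14.24 in high stress and 13.36, 13.85 and 14.14 in low stress, a log2 difference of -0.11 (95% confidence interval -0.41 to 0.19, limma adjusted p = 0.999). CAPNS1-B gave 11.89, 12.24 and 12.52 in high stress and 11.70, 12.22 and 12.43 in low stress, a log2 difference of 0.03 (95% confidence interval -0.24 to 0.30, limma adjusted p = 0.999). The groups overlapped in both. The second set's sign turned without any 1 of 3 animals, with -0.04 without low stress replicate 3 and -0.01 without high stress replicate 4 or 6, and with quantile normalization (-0.02).

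CAPN3, the skeletal muscle calpain, was dim in both of its probe sets, and neither passed the filter. CAPN3-A gave 3.43, 4.92 and 6.10 in high stress and 4.63, 4.89 and 5.43 in low stress, and CAPN3-B gave 0.79, 2.27 and 2.78 in high stress and 1.96, 2.26 and 3.16 in low stress. In a fit without the filter, over 23999 probe sets, the log2 differences were -0.16 (95% confidence interval -0.80 to 0.49) and -0.34 (-0.93 to 0.25), each with a limma adjusted p = 0.999. Skeletal muscle markers above the filter summed to 422 to 837 in high stress and 430 to 850 in low stress.

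**Figure D2:**
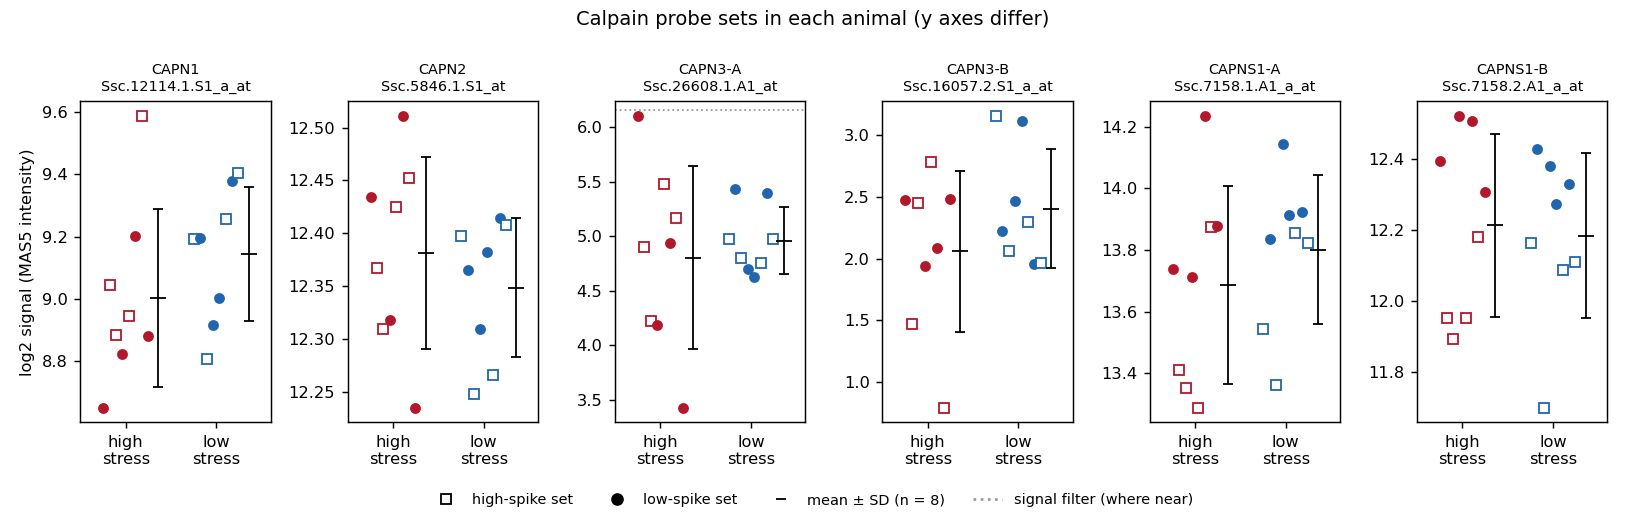
Log2 signal of the 6 calpain probe sets in each of 8 high stress (red) and 8 low stress (blue) pigs, with open squares for the high-spike and filled circles for the low-spike set, and mean ± SD. The groups overlap in each panel, CAPN2 spans only 12.23 to 12.51, and the squares of CAPNS1 lie below most circles.

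None of the 4 tested calpain probe sets passed limma at an adjusted p under 0.05, where 0% of 14399 probe sets did (460 at an unadjusted p under 0.05). On the low side 1.92% of all probe sets had an unadjusted p under 0.05 and on the high side 1.27%. Of the 7 tested probe sets of CAST and the calpains, 5 had a difference below 0 and 2 above, against 58.4% below 0 among all. That count is a description: every tested CAST probe set lay below 0, and CAST was chosen by its values in this comparison. The calpains, added by family, lay on both sides, with CAPN1 (-0.14) and CAPNS1-A (-0.11) below 0 and CAPN2 and CAPNS1-B (0.03 each) above. With the set of the array as a block, the adjusted p of the calpains was 0.845 to 0.959.

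The annotation named 2 further calpains, CAPN7 and CAPN10, of 13 searched. CAPN10, an atypical calpain linked in humans to type 2 diabetes, averaged 7.61 ± 0.17 in high stress glands and 7.26 ± 0.30 in low stress glands (SD, n = 8 each). Values above the low stress mean were seen in 8 of 8 high stress animals, with a range of 7.36 to 7.91 in high stress against 6.79 to 7.61 in low stress. The log2 difference of 0.36 (95% confidence interval 0.09 to 0.63) did not pass over all probe sets (limma adjusted p = 0.999, or 0.707 with the set as a block). It was 0.27 within the high-spike and 0.44 within the low-spike set. CAPN7, an atypical calpain that binds the membrane-remodelling ESCRT proteins, averaged 9.48 ± 0.42 in high stress glands and 9.58 ± 0.34 in low stress glands, a log2 difference of -0.10 (95% confidence interval -0.49 to 0.29, limma adjusted p = 0.999).

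**Figure D3:**
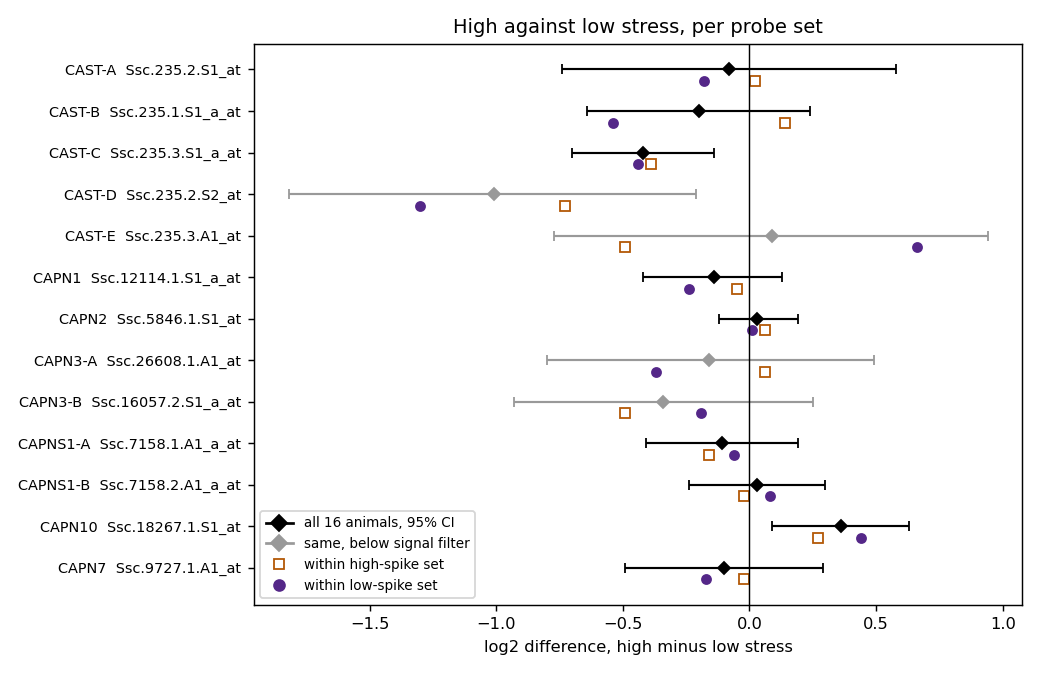
Log2 difference of high minus low stress for each probe set of CAST and the calpains over 16 animals with 95% confidence intervals (diamonds, grey where below the signal filter), and the same within the high-spike (open squares) and low-spike set (filled circles). The intervals of CAST-C and CAST-D lie below 0 and that of CAPN10 above it; CAST values are a description, since they chose the gene.

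The sets of arrays, which did not enter the choice of CAST, separated some of these probe sets far more than stress did. The same held across the array, where 23.7% of 14399 probe sets were higher and 16.3% lower in the high-spike set (limma adjusted p under 0.05), and 0% passed for stress. CAST-A was higher in the high-spike set, at 8.38, 8.89 and 9.53 against 7.47, 7.82 and 8.51 in the low-spike set (lowest, median, highest). Of the high-spike arrays 7 of 8 lay above every low-spike array. The log2 difference of 1.08 (95% confidence interval 0.70 to 1.46), 2.11-fold, passed limma with stress in the model (adjusted p = 0.000284). It also passed within high stress animals (1.18, limma adjusted p = 0.0141) and within low stress animals (0.98, limma adjusted p = 0.0428). Of all 14399 probe sets, 2408 passed within high stress animals and 1681 within low stress animals. The set took 70.5% of this probe set's variance over the animals and stress 0.424%.

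For the other tested CAST probe sets this contrast did not pass. CAST-B averaged 7.48 ± 0.37 in the high-spike and 7.15 ± 0.46 in the low-spike set (SD, n = 8 each), a log2 difference of 0.33 (95% confidence interval -0.08 to 0.74, limma adjusted p = 0.185). CAST-C averaged 6.70 ± 0.36 in the high-spike and 6.79 ± 0.31 in the low-spike set, a difference of -0.08 (95% confidence interval -0.36 to 0.19, limma adjusted p = 0.634). The tested CAST probe sets thus spanned 1.16 on the log2 scale in this contrast. Among the 337 genes with at least 3 tested probe sets the median span was 0.50, and 29 of them, 8.61%, spanned at least as much as CAST.

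CAPNS1 went the other way. CAPNS1-B gave 11.70, 12.02 and 12.18 in the high-spike set against 12.27, 12.39 and 12.52 in the low-spike set, so the sets did not overlap (log2 difference -0.39, 95% confidence interval -0.56 to -0.21, limma adjusted p = 0.00155). CAPNS1-A gave 13.29, 13.48 and 13.88 in the high-spike and 13.71, 13.90 and 14.24 in the low-spike set (-0.36, 95% confidence interval -0.59 to -0.12, limma adjusted p = 0.0176). After quantile normalization the call of CAPNS1-A was lost (-0.13, limma adjusted p = 0.233). CAPN1 had a log2 difference of 0.13 (limma adjusted p = 0.418) and CAPN2 of -0.01 (limma adjusted p = 0.901), or 0.11 after quantile normalization. CAPN7 was 1.57-fold higher in the high-spike set (log2 difference 0.65, 95% confidence interval 0.44 to 0.85, limma adjusted p = 0.000125), and CAPN10 had -0.15 (limma adjusted p = 0.359).

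Of the 7 tested probe sets of CAST and the calpains, 1 was higher and 2 were lower between the sets, where 23.7% of all 14399 were higher and 16.3% lower. The 3' to 5' ratio of actin averaged 6.87 in the high-spike and 14.0 in the low-spike set, and that of GAPDH 1.52 in the high-spike and 1.39 in the low-spike set. Because the actin ratio does not overlap between the sets, a model with both can hardly tell them apart. With both in the model, 17 of 14399 probe sets passed between the sets, against 5767 without the ratio, so calls were lost across the array. In that model CAST-A had a log2 difference of 0.80 (limma adjusted p = 0.378), against 1.08 without the ratio. CAPNS1-B and CAPNS1-A had -0.22 and -0.07 (limma adjusted p = 0.620 and 0.931). Within the sets, none of 14 correlations of the actin ratio with the 7 tested probe sets passed an exact permutation test after adjustment (smallest adjusted p = 0.316, and 1 with an unadjusted p under 0.05). Stress was not taken out of these correlations. For CAST-A, r was -0.51 in the high-spike set (exact permutation p = 0.196; rho = -0.52, exact permutation p = 0.197; -0.60 without 2 animals) and 0.18 in the low-spike set (exact permutation p = 0.642; rho = 0.14, exact permutation p = 0.752; 0.70 without 2 animals), n = 8 each. Smooth muscle markers, measured in 7 of 9 genes, moved with the sets as well: 6 of their 9 probe sets were lower in the high-spike set, and their summed intensity was 5879 to 15415 in the high-spike and 11473 to 25183 in the low-spike set. The part of these markers in the differences of CAST and CAPNS1 was not tested.

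**Figure D4:**
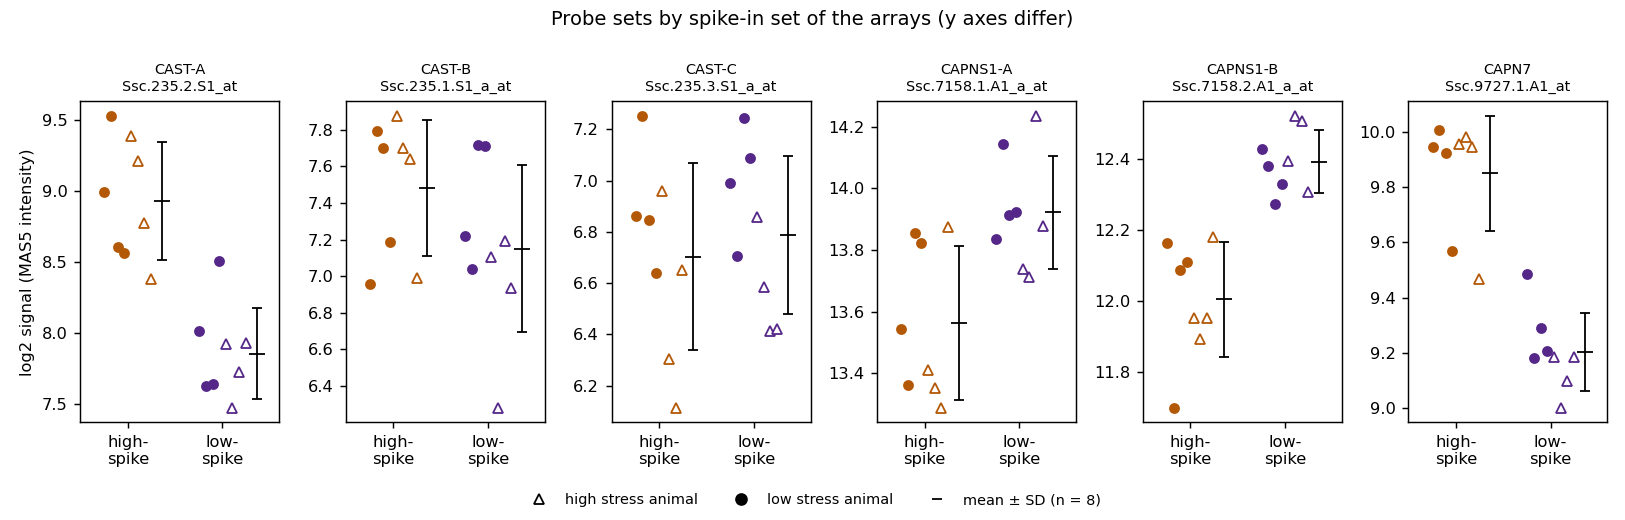
Log2 signal of 3 CAST, 2 CAPNS1 and 1 CAPN7 probe sets by high-spike (orange) and low-spike (purple) set of arrays, with open triangles for high stress and filled circles for low stress animals, and mean ± SD. CAST-A and CAPN7 are higher in the high-spike set, CAPNS1 is lower there, and CAST-C averages 6.70 and 6.79.

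Because the arrays form separate sets, co-variation between the 7 tested probe sets was examined within each set of 8 animals, over 42 relations. Each set held pigs of both stress groups and stress was not taken out, so stress differences enter these correlations. None passed an exact permutation test after Benjamini-Hochberg adjustment (smallest adjusted p = 0.0552), and 9 had an unadjusted p under 0.05. The closest was CAPN1 with CAPNS1-A in the high-spike set (Pearson r = 0.91, exact permutation p = 0.00131; Spearman rho = 0.88, exact permutation p = 0.00724; n = 8), and r was 0.92 without the 2 animals farthest from the median of CAPN1. In the low-spike set the same pair had r = 0.44 (exact permutation p = 0.277; rho = 0.69, exact permutation p = 0.0694; adjusted 0.528; n = 8). CAST-A and CAPN1 had r = -0.84 in the high-spike set (exact permutation p = 0.0110, adjusted 0.154; rho = -0.88, exact permutation p = 0.00724; -0.66 without 2 animals) and r = 0.57 in the low-spike set (exact permutation p = 0.135, adjusted 0.333; rho = 0.48, exact permutation p = 0.243; -0.09 without 2 animals), n = 8 each. The difference between the sets was not tested.

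After taking out the means of stress group and array set, CAST-A correlated over 16 animals at 0.58 with CAST-B and at 0.42 with CAST-C, and the last 2 correlated at 0.30. The CAPNS1 probe sets correlated at 0.60. Within the sets, with stress left in, the CAPNS1 pair had r = 0.74 in the high-spike and 0.07 in the low-spike set. CAST-B with CAST-C had 0.09 in the high-spike and 0.70 in the low-spike set. CAST-A differed less between the high-spike and low-spike sets, with 0.62 and 0.57 for CAST-B and 0.41 and 0.36 for CAST-C. These are descriptions, and probe sets read on the same array share its RNA, labelling and scaling.

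By the same measure, named probe sets of other genes were ranked by their correlation with CAST-A. The ends of so long a ranking are extreme by selection, so they cannot be set against the preset pairs of CAST probe sets. Of 7269 named probe sets, 121 had a correlation beyond 0.8 in size. The highest were CCT6A, a subunit of the chaperonin that folds actin and tubulin (0.94), PPP4R3B, a regulatory subunit of protein phosphatase 4 (0.94), DYNC1I2, an intermediate chain of cytoplasmic dynein (0.90), SUGT1, a co-chaperone (0.90), and KIF3A, a kinesin motor (0.89). The lowest were GNG5, a G protein gamma subunit (-0.91), PTDSS1, a phosphatidylserine synthase (-0.89), and AUP1, a protein of lipid droplets (-0.87). Their correlations with CAST-C were between -0.58 and 0.53. For CAST-C itself only 5 named probe sets went beyond 0.8, led by DDX27, an RNA helicase of the nucleolus (0.87), and PISD, a mitochondrial phosphatidylserine decarboxylase (-0.86). This ranking was added after the values were seen. DDX27 correlated with CAST-A at 0.29.

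The substrates and surroundings of calpains were taken from lists, and no probe set of any list passed limma in the stress comparison (adjusted p = 0.999 for each gene named here). Of 16 tested probe sets for 12 genes of the cytoskeleton and cell adhesion that calpains are known to cut, 8 had a higher and 8 a lower mean in high stress, and the median log2 difference was 0.00 against -0.03 over all probe sets, with 0 at an unadjusted p under 0.05. The smallest p belonged to EZR, which ties actin to the membrane, with 11.59 ± 0.29 in high stress glands and 11.81 ± 0.31 in low stress glands (SD, n = 8 each), and a log2 difference of -0.22 (SE 0.15). CTTN, cortactin, had 0.17 (SE 0.12), FLNA, filamin A, 0.19 (SE 0.20), and TLN1, talin, -0.16 (SE 0.20).

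Of 20 tested probe sets for 10 substrates in signalling and cell death, 10 were higher and 10 lower, with a median of 0.00 and 0 at an unadjusted p under 0.05. CTNNB1, beta-catenin, had a log2 difference of 0.28 (SE 0.16), PRKCB, a protein kinase C, -0.32 (SE 0.22), the cell death protein BAX 0.14 (SE 0.11), and PPP3CA, the catalytic subunit of calcineurin, -0.23 (SE 0.18). Genes that supply or sense calcium had 9 probe sets higher and 7 lower of 16, for 9 genes, with a median of 0.02. ATP2A2, the calcium pump of the endoplasmic reticulum, had 0.17 (SE 0.10), the plasma membrane channel ORAI1 0.20 (SE 0.12), the inositol trisphosphate receptor ITPR3 -0.26 (SE 0.23), and the calmodulin gene CALM3 -0.18 (SE 0.20).

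CAST was also set beside other inhibitors of proteases. Of 21 tested probe sets for 15 genes, 8 had a higher and 13 a lower mean in high stress; their median log2 difference was -0.03, and 2 had an unadjusted p under 0.05, both higher, where 1.27% of all probe sets did on that side. These were TFPI2, an inhibitor of serine proteases, at 12.61 ± 0.11 in high stress glands and 12.40 ± 0.18 in low stress glands (log2 difference 0.20, SE 0.09), and TIMP1, an inhibitor of metalloproteases, at 12.00 ± 0.19 in high stress glands and 11.75 ± 0.26 in low stress glands (0.25, SE 0.12; SD, n = 8 each). A2M, the broad inhibitor alpha-2-macroglobulin, had -0.30 (SE 0.18), and TIMP3 had -0.20 (SE 0.13). Between the sets of arrays, where 23.7% of all probe sets were higher in the high-spike set and 16.3% lower, 1 of these 21 was higher and 8 were lower. For the substrates of cytoskeleton and adhesion 2 of 16 were higher and 7 lower, for those of signalling and cell death 7 of 20 were higher and 4 lower, and for the calcium genes 3 of 16 were higher and 5 lower.

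Of 5 measured chromosome neighbours of CAST in the reference gene table, none passed limma (adjusted p = 0.999 each; 0 of their 6 probe sets at an unadjusted p under 0.05). PCSK1, a prohormone convertase that lies next to CAST, averaged 7.89 ± 0.25 in high stress glands and 7.74 ± 0.63 in low stress glands (SD, n = 8 each), a log2 difference of 0.14 (95% confidence interval -0.33 to 0.62). GLRX, a glutaredoxin, had -0.09 (95% confidence interval -0.38 to 0.20), ARSK, a lysosomal sulfatase, -0.26 (-0.66 to 0.15), ST8SIA4, a polysialyltransferase, 0.05 (-0.55 to 0.65), and PAM, which amidates peptide hormones, -0.10 (-0.30 to 0.09). ERAP1, whose annotated span overlaps the end of CAST, and its neighbours ERAP2 and LNPEP had no named probe set and were not analysed here.

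The first digit of the animal number, whose meaning the labels do not give, divided the pigs into 4 groups of 4. For CAPN1 it took 43.9% of the variance, with means of 9.02, 8.86, 9.10 and 9.31 for the digits 3, 4, 5 and 8, and did not pass (limma adjusted p = 0.904 over all probe sets, of which 0 passed). For the tested CAST probe sets the digit took 5.05% to 12.1%. A division into 4 groups takes some of the variance by chance alone, and CAPN1 had the largest share among the probe sets of CAST and the calpains.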

How the data were processed

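The authors deposited 1 linear intensity per probe set and array, with Affymetrix Expression Console 1.1.1 and MAS5 named in the submitters' processing notes; no MAS5 version is named. Trimmed by 2% at both ends, the mean intensity of each deposited column came to 500, a common target level. Detection calls and scans were not used here. After 124 controls were set aside, 10069 of 23999 probe sets had 1 gene symbol, 198 several and 13732 none; gene numbers matched 9961 of them to the reference gene table (Sscrofa11.1, for names and neighbours only), and 0 symbols changed. Log2 signals above the 40th percentile entered limma 3.58.1 under R 4.3.3 (lmFit, eBayes, two-sided), with Benjamini-Hochberg adjustment over all probe sets tested and a threshold of 0.05. All 16 animals entered each fit except those within an array set or stress group or with animals left out; their number limits the precision. Array sets were split at the widest gap of the dap control. Named were all member probe sets, the 4 genes of each list with the smallest p, further calpains and measured neighbours, and the 5 most and 3 least correlated genes. Members and lists were chosen with earlier results of these data known, and the array sets were first found in these data. Correlations used exact permutations over all orders of 8 animals. Scripts were tested on simulated data. Python 3.11.15 with matplotlib 3.10.9 drew the plots.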

Additional observations from a re-analysis of the deposited data

Results flagged for a closer look

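In 2 of 26 groups of 8 animals (13 probe sets in high and in low stress), 1 animal lay far from the other 7; chance alone gives about 1 in 20. In CAST-E, low stress replicate 4 had a log2 signal of 2.72, against 4.86 to 6.0 in the other low stress animals, in a probe set below the signal filter. In CAPNS1-B, low stress replicate 3 had 11.70, against 12.09 to 12.43 in the other low stress animals; the log2 stress difference of that probe set was 0.03 with it and -0.04 without it.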

How the results depend on the processing

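The count of probe sets that passed in the stress comparison was 0 and became 1 with the spike-in set as a block and 1 with the actin ratio as a covariate beside that block; it was 0 whichever animal was left out. For CAST-C the log2 stress difference lay between -0.50 and -0.33 under other normalizations, models and array sets and between -0.48 and -0.36 with 1 animal left out. Because CAST-C chose the gene by this difference on the same arrays, these ranges are a description and lend the difference no support. Of 433 values in all, 411 kept their side of the threshold and direction, or for CAST moved by less than the spread between animals. That spread was wide, so stress differences of CAST-A and CAST-B that turned sign were counted as kept. Within the high-spike set CAST-B had 0.14 and CAST-A 0.02, and CAST-A had 0.07 without low stress replicate 3. Near-zero stress differences turned sign with quantile normalization, to -0.01 for CAPN2 and -0.02 for CAPNS1-B, and CAPNS1-B had -0.02 within the high-spike set and -0.04 to 0.08 with 1 animal left out. Between the spike-in sets, quantile normalization gave CAPNS1-A -0.13 (call lost) and CAPN2 0.11. Within high stress animals these were -0.41 (call lost) and 0.01. Within low stress animals the calls of CAPNS1-A (-0.31) and CAPNS1-B (-0.34) were lost, with fewer samples, and CAST-B had -0.01. Over all 14399 probe sets, 2408 passed within high stress and 1681 within low stress animals, against 5767 over all animals. With the actin covariate, whose values do not overlap between the spike-in sets, 17 of 14399 probe sets passed, against 5767 without it. The calls of CAST-A (0.80) and of both CAPNS1 probe sets (-0.07 and -0.22) were among those lost. In that model CAST-B (-0.36) and CAPN2 (0.01) turned sign. CAPN2 had -0.04 to 0.01 with 1 animal left out. The median log2 difference of all probe sets between the spike-in sets was -0.02, and -0.15 with arrays centred on their median. The cause was not tested where none is given. The fits within stress groups, with the actin covariate between spike-in sets, over means of CAST probe sets and without high stress replicate 7 and low stress replicate 4 (-0.47 for CAST-C) were chosen after seeing the data. Animal numbers do not repeat between the groups, so no analysis paired by animal was possible. Array set and first digit together matched each high stress animal with a low stress animal, but these pairs were not used as blocks. With set and digit as separate blocks, 0 probe sets passed. The limma adjusted p of the tested calpain probe sets was then 0.817 to 0.961. Low signal limits the CAPN3 and the 2 dim CAST probe sets.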
